A study of Mus musculus with 16 samples.

Results

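A set of 10 genes of cartilage and tendon was followed in the cortical bone and skeletal muscle of aged mice. The cartilage genes were Acan, Comp, Matn1, Matn3 and Sox9, and the tendon genes were Scx, Tnmd, Fmod, Thbs4 and Dcn. They were chosen by name, and their rows were taken from the 38933 genes of the cortical bone table and the 21011 genes of the skeletal muscle table. All 10 were in the bone table. Of the 10, 7 were present in the muscle table, and Acan, Matn1 and Matn3 were not among its rows. The mice were female C57BL/6 mice, 18 months old when dosing began. The BAY group received BAY2416964, an antagonist of the aryl hydrocarbon receptor (AhR), at 30 mg/kg by oral gavage 5 days per week for 8 weeks; the VEH group received the ethanol, Solutol and water vehicle on the same schedule. Each group held 4 mice per tissue, with 1 library per mouse and 16 libraries in all. Muscle RNA came from the tibialis anterior, and bone RNA came from shafts that had been digested with collagenase after the marrow stromal cells were taken out.

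Cartilage matrix is built by chondrocytes. Sox9 is the transcription factor that sets the chondrocyte program, Acan encodes aggrecan, the large proteoglycan that holds water in the matrix, and Matn1 and Matn3 encode matrilins, adaptor proteins that link matrix components. Comp encodes a thrombospondin that binds collagen in cartilage and is also made in tendon. Tendon is built by tenocytes. Scx encodes scleraxis, a basic helix-loop-helix transcription factor of tendon progenitors and tenocytes, and Tnmd encodes tenomodulin, a membrane glycoprotein of mature tenocytes. Fmod and Dcn encode fibromodulin and decorin, small leucine-rich proteoglycans that bind collagen fibrils, and Thbs4 encodes a thrombospondin found at tendons and muscle attachments. Dcn is made by many fibroblasts and is the least particular to tendon of these genes. AhR is a basic helix-loop-helix factor too, activated by ligands.

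Sequences just before the transcription start were read for the members with an entry in the RefSeq promoter table (GRCm38.p6), which were 6 of the 10: Acan, Matn1, Matn3, Tnmd, Fmod and Thbs4. The 250 bases before the start were searched on both strands for GCGTG, the core that AhR binds with its partner, and for CANNTG, the E-box bound by basic helix-loop-helix factors such as scleraxis. The first was found in 1 member, Thbs4, and in 28.2% of all 32851 promoters in the table. The second was found in 4 members, Acan, Matn1, Fmod and Thbs4, and in 66.2% of all promoters. The sequences of Thbs4, Matn1 and Fmod are shown because Thbs4 was the member with an AhR core, Matn1 held the most E-boxes, 3, and Fmod, like Thbs4, was among the most abundant members of both tissues. Capitals mark the matches, and a match is a run of letters, not a bound site.
Thbs4, chr13:92794819-92795068, minus strand: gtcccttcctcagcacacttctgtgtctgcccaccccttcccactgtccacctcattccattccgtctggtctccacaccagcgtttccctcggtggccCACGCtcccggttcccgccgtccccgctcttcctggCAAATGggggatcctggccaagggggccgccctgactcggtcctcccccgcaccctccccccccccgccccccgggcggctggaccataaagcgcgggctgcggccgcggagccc
Matn1, chr4:130944135-130944384, plus strand: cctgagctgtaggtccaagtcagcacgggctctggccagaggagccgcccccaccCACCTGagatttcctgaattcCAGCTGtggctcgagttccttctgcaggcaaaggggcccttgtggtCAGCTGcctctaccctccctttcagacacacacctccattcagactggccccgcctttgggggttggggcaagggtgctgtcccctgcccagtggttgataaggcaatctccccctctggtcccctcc
Fmod, chr1:134037004-134037253, plus strand: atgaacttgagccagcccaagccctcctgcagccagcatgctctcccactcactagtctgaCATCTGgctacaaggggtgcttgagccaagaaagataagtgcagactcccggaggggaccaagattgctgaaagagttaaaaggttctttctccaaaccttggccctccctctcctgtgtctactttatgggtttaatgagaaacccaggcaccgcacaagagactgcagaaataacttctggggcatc
In the Thbs4 sequence the CACGC that begins 151 bases before the start is GCGTG on the other strand, and CAAATG begins 115 bases before the start. In Fmod the E-box is CATCTG, 189 bases before the start. In Matn1 the E-boxes are CACCTG and, at 2 places, CAGCTG.

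The values are read counts scaled to a common library total (CPM). From the steps between low values, 6131900 to 9262395 reads per library were recovered in muscle and 930307 to 6951925 in bone. A value of 3 reads, taken as the floor, lay between 0.324 and 0.489 CPM in muscle and between 0.432 and 3.22 CPM in bone. The labelled tissue was present in every library: all 8 muscle fibre markers were in the muscle table and summed to at least 98088 CPM, and all 8 osteoblast and osteocyte markers were in the bone table and summed to 972 to 21809.5 CPM. The 8 muscle fibre markers were also counted in the bone libraries, at a summed 37.9 to 34733 CPM. Whether the lowest of these sums were above background was not tested. The table names the muscle column of VEH replicate 3 as a replacement. In that library the 6 adipocyte markers summed to 199 CPM, against 2.2 to 9.66 in the other 7, and the 8 fibroblast markers to 206 CPM, against 68.6 to 101. In bulk tissue, fewer cells of a type and less RNA per cell cannot be told apart.

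BAY was compared with VEH in muscle to ask whether these connective tissue genes differed once AhR was blocked. Scx was higher in BAY-treated muscle by 1.55-fold, and it was the only one of the 7 members with an unadjusted P value under 0.05 in the fit across all genes. Calls needed an unadjusted P below 0.05 together with at least a 2-fold change. By that rule 0 of the 7 members were called, where 2.43% of all muscle genes were, and at an unadjusted P value under 0.05 alone 1 of 7 passed, where 9.79% of all genes did. The tendon gene Dcn and the cartilage gene Comp were lower on average without passing the test, as were Fmod, Tnmd and Thbs4. After Benjamini-Hochberg adjustment in limma no gene of the muscle table was under 0.05, and the smallest adjusted P value was 0.184.

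Scx (ENSMUSG00000034161) lies on chromosome 15 from 76341652 to 76343658 in mm39. It was at 3.49, 3.07, 3.35 and 2.98 CPM in VEH replicates 1 to 4 and at 4.13, 5.71, 4.26 and 6.17 CPM in BAY replicates 1 to 4. Every BAY-treated mouse was above every VEH-treated mouse. The means were 3.22 ± 0.238 and 5.07 ± 1.03 CPM (SD, n = 4 each). This was a log2 fold change of 0.63 (standard error, SE, 0.23; 95% interval 0.13 to 1.14). The unadjusted limma P value was 0.0171 and the adjusted P value 0.409. An exact two-sided permutation of the mice gave P = 0.0286, the lowest value possible with 4 against 4. The groups failed to overlap for 5.73% of all muscle genes, and for 1 of the 7 members. The values rest on 22 to 44 reads per library. The 4 VEH-treated mice were close together and the 4 BAY-treated mice were spread more widely, with replicates 2 and 4 the highest. Leaving out each mouse in turn kept the unadjusted P value between 0.0137 and 0.047. Scx lies wholly within Bop1, a ribosome biogenesis gene on the opposite strand (76337155 to 76362079), with 0 exon bases in common in GENCODE. Whether the counting used strand is not given in the sources used here. Bop1 was at 8.57 CPM on average in VEH-treated and 8.73 CPM in BAY-treated muscle, a log2 fold change of 0.05 (SE 0.21).

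**Figure D1:**
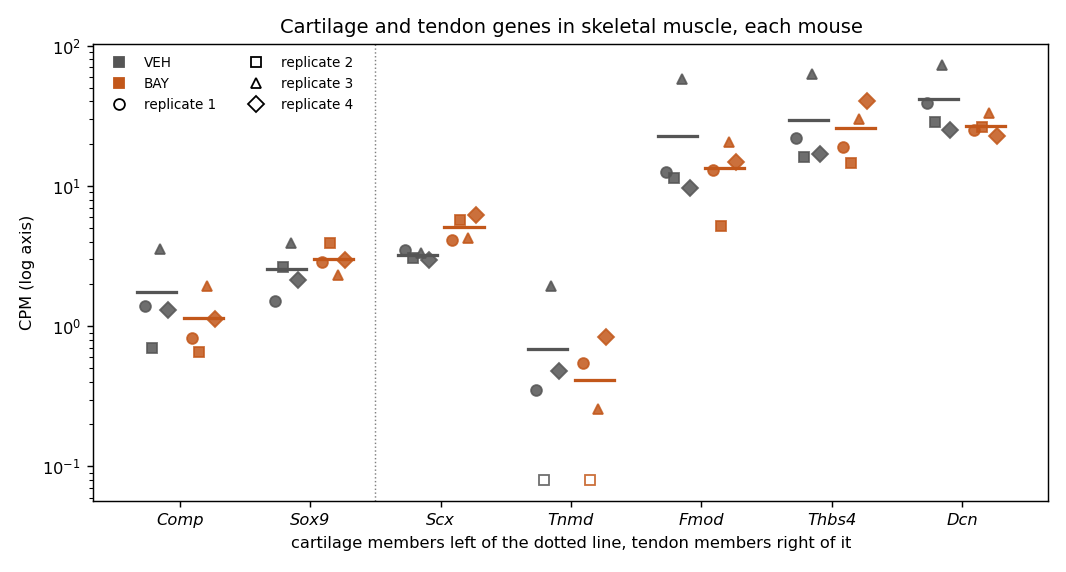
CPM of the 7 members in the muscle table on a log axis, 1 point per mouse, with VEH in grey, BAY in orange, the replicate by the marker's shape and the group mean (n = 4) as a bar; open squares at the bottom are values listed at 0. The 4 BAY points of Scx lie above its 4 VEH points, and the VEH triangle, replicate 3, is the highest point of Comp, Tnmd, Fmod, Thbs4 and Dcn.

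The other tendon members overlapped between the groups, and the library of VEH replicate 3 was the highest of the 8 for each of these 4. Dcn was at 39.2, 28.7, 73.1 and 24.9 CPM in VEH-treated and 25, 26.3, 33.2 and 22.6 CPM in BAY-treated muscle. Dcn had a log2 fold change of -0.52 (SE 0.27, limma unadjusted P = 0.0732, adjusted P = 0.557). Of 18 alternative settings for Dcn, 9 gave an unadjusted P value under 0.05, and without VEH replicate 3 the log2 fold change was -0.20 with an unadjusted P value of 0.274. So the lower mean of this collagen-binding proteoglycan rested in large part on 1 mouse.

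Fmod was at 12.5, 11.4, 57.8 and 9.66 CPM in VEH-treated and 12.9, 5.22, 20.4 and 14.9 CPM in BAY-treated muscle. Its VEH mean was 22.8 ± 23.3 CPM (SD, n = 4), and 11.2 ± 1.41 CPM (SD, n = 3) without VEH replicate 3. For Fmod the log2 fold change, -0.49 (SE 0.50), became 0.10 without that mouse. Fibromodulin thus had no direction that held over the mice.

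Thbs4 was at 22, 16.2, 62.9 and 16.9 CPM in VEH-treated and 19.1, 14.5, 30.2 and 40.2 CPM in BAY-treated muscle. VEH replicate 3 was again the highest, and BAY replicates 3 and 4 came next. Thbs4 had a log2 fold change of -0.04 (SE 0.39), and 0.41 without VEH replicate 3 (limma unadjusted P = 0.187). Tnmd was near the floor, at 0.349, 0, 1.94 and 0.477 CPM in VEH-treated and 0.55, 0, 0.258 and 0.841 CPM in BAY-treated muscle. A count of 0 allows up to 0.418 CPM in VEH replicate 2 and 0.489 CPM in BAY replicate 2. With 0 to 18 reads per library, a difference in tenomodulin was not detectable at this depth: the log2 fold change of -0.36 had a standard error of 2.85.

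The cartilage members in muscle were low. Sox9 was at 1.51, 2.65, 3.89 and 2.15 CPM in VEH-treated and 2.89, 3.91, 2.32 and 2.94 CPM in BAY-treated muscle, on 13 to 36 reads per library. Sox9 had a log2 fold change of 0.30 (SE 0.34), within the spread between mice. Comp was at 1.4, 0.697, 3.56 and 1.31 CPM in VEH-treated and 0.826, 0.652, 1.94 and 1.12 CPM in BAY-treated muscle. The highest value of Comp in each group was that of replicate 3, and its log2 fold change was -0.49 (SE 0.56). Without VEH replicate 3 the log2 fold change of Comp was -0.06 (limma unadjusted P = 0.914). In the comparison of BAY with VEH, 2 members were higher and 5 lower, and their median log2 fold change was -0.36, where the median of all muscle genes was 0.06. Without VEH replicate 3 the counts turned to 5 higher and 2 lower, with a median of 0.41. The balance also turned without BAY replicate 2, to 4 higher and 3 lower with a median of 0.17, and with array weights, with a median of 0.10. The summed adipocyte and fibroblast markers were highest in the library of VEH replicate 3. So were the 4 osteoblast and osteocyte markers of the muscle table, at a summed 97.1 CPM against 22.3 to 34.2 in the other 7. The part of these markers in the result was not tested.

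**Figure D2:**
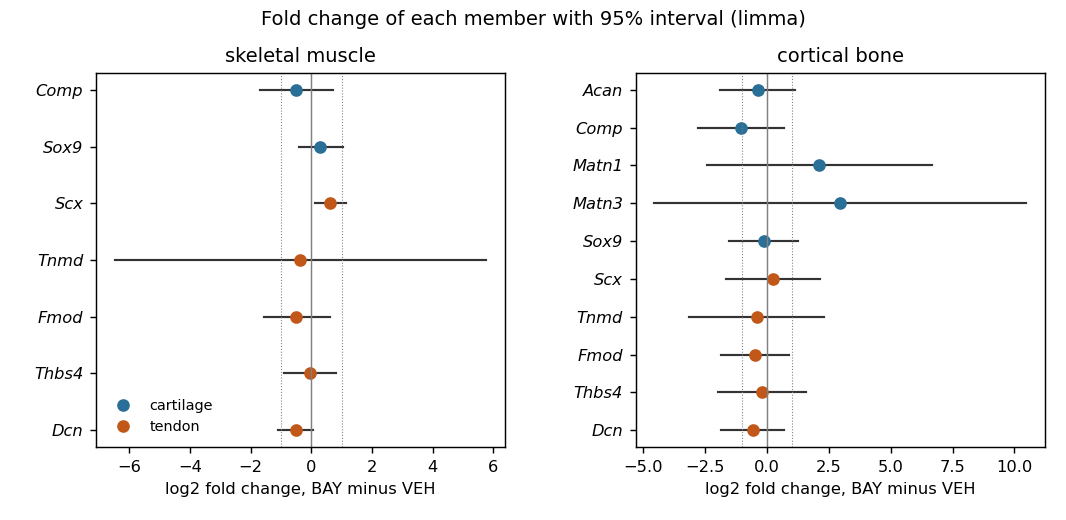
Log2 fold change of each member, BAY minus VEH, as a point with its 95% interval from limma (line), in muscle on the left and bone on the right, with cartilage genes in blue, tendon genes in orange and dotted lines at a fold change of 2. The interval of Scx in muscle, from 0.13 to 1.14, is the only one of the 17 that does not reach 0, and those of Tnmd in muscle and of Matn1 and Matn3 in bone are the widest.

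Per kilobase of the canonical transcript, a scale on which genes can be set beside each other within a tissue, the members of muscle ranked from Thbs4 at 8.68 CPM per kb through Fmod at 5.8, Dcn at 5.59, Scx at 3.04, Sox9 at 0.667 and Comp at 0.591 to Tnmd at 0.406 CPM per kb. Thbs4 was above Fmod, and Scx above Sox9, in 8 of 8 mice. Fmod and Dcn changed places, with Fmod higher in 4 of 8 mice, and so did Sox9 and Comp, with Sox9 higher in 4 of 8. Dcn was above Scx in 7 of 8 mice and Comp above Tnmd in 6 of 8. Muscle thus held the tendon matrix genes and scleraxis above the cartilage genes, and tenomodulin last. Dcn was scaled by a canonical transcript of 6104 bases, the longest here after that of Acan, and a shorter isoform would place it higher.

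Of the genes related to the members, 20 further cartilage genes and 20 further tendon genes were listed. In muscle 16 of the 20 cartilage genes were in the table, 11 of them higher and 5 lower, and 0 were called. Their median log2 fold change was 0.29, and 0.06 with log2(CPM + 1). The cartilage collagen genes Col9a1, Col11a2 and Col10a1 had the largest changes, none with an unadjusted P value under 0.05. Col9a1 was at 1.32 ± 0.909 CPM in VEH-treated and 2.14 ± 0.347 CPM in BAY-treated muscle (SD, n = 4 each), with a log2 fold change of 1.13 (SE 0.63). The log2 fold changes of Col11a2 and Col10a1 were 0.82 and 0.69, and all 3 were smaller without VEH replicate 3, at 0.42, 0.48 and 0.37. Over the whole list, 3 of the 16 genes were lower without that mouse and 13 were not.

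All 20 further tendon genes were in the muscle table, 6 higher and 14 lower (median log2 fold change -0.37), and without VEH replicate 3 the split was 10 to 10. Of these 1 was called higher and 1 called lower, where 2.43% of all muscle genes were called, and 3 of the 20 had an unadjusted P value under 0.05, where 9.79% of all did. Egr1, an early-response transcription factor that also acts in tendon, rose from 5.08 ± 2.73 to 12 ± 6.58 CPM (SD, n = 4 each), with a log2 fold change of 1.27 (SE 0.45, limma unadjusted P = 0.0129, adjusted P = 0.387). The VEH range of Egr1, 1.86 to 7.99 CPM, overlapped its BAY range, 5.54 to 20.6 CPM. Dpt, which encodes dermatopontin, a decorin-binding matrix protein, fell from 6.06 ± 4.49 to 2.6 ± 1.22 CPM (SD, n = 4 each), with a log2 fold change of -1.05 (SE 0.45, limma unadjusted P = 0.0369, adjusted P = 0.48), and its groups overlapped too. The log2 fold change of Ogn, a further leucine-rich proteoglycan gene, was -1.06 (SE 0.52), which did not pass. Without VEH replicate 3 the values of Dpt and Ogn were -0.61 and -0.60, and that of Egr1 was 1.56. Neither call held over the mice. Egr1 was no longer called without VEH replicate 1, at 0.86, or without BAY replicate 3, at 0.96. Dpt was no longer called without VEH replicate 1, at -0.95, VEH replicate 3, BAY replicate 1, at -0.86, BAY replicate 2, at -0.98, or BAY replicate 4, at -1.01 with an unadjusted limma P of 0.0821. VEH replicate 3 was the highest of the 8 libraries for 16 of the 20 genes, as it was for 5 of the 7 members. In this list 1 of the 20 genes, Lum, had groups that did not overlap, as had 5.73% of all muscle genes.

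In cortical bone the comparison of BAY with VEH called 0 of the 10 members, where 0.64% of all bone genes were called, and the same 0.64% had an unadjusted P value under 0.05. The paper used limma with voom, and voom on the recovered reads called 1433 of the 38933 bone genes and 0 of the 10 members. In the fit used here the share under 0.05 was itself far below that threshold. The fit was thus strict in bone, and 0 of 10 does not show that no member differed. No member reached an unadjusted limma P below 0.05 in this comparison, nor with voom on the recovered reads, though Matn1 and Comp each did in 1 other setting given with their values, and the smallest adjusted P value of any bone gene was 0.887. The matrix genes Comp, Dcn, Fmod and Acan were lower on average in BAY-treated bone, each within the spread between mice, and Matn1, at 1 to 5 reads per library, was the single member whose groups did not overlap. Over the members 3 were higher and 7 lower, with a median log2 fold change of -0.29. Over all bone genes the median was 0.84, and 80.9% of genes were higher, a shift that median centring took to -0.01. After median centring the members' median was -1.14, with 2 higher and 8 lower, and with quantile normalization it was -0.52. With array weights the balance turned to 5 higher and 4 lower, with a median of 0.04. Without BAY replicate 4 the members' median was -0.10.

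The bone libraries differed in how far a gene's reads stood above those of genes that bone should not use. Vomeronasal receptor genes (Vmn2r), which act in the vomeronasal organ, served as that level, with 118 of them in the table. They were at 0.103, 6.33, 1.37 and 5.9 CPM per kb in VEH replicates 1 to 4 and at 2.3, 2.21, 2.66 and 9.37 CPM per kb in BAY replicates 1 to 4. The level was lowest in VEH replicate 1 and highest in BAY replicate 4 and VEH replicate 2. The members above 3 times the Vmn2r level numbered 8, 0, 6 and 4 of 10 in VEH replicates 1 to 4 and 5, 5, 4 and 0 in BAY replicates 1 to 4. So in VEH replicate 2 and BAY replicate 4 none of the 10 genes stood clear of it. Without these 2 libraries, a choice made after seeing the data, 0 members were called, where 0.758% of all bone genes were, and 5 were higher and 5 lower.

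**Figure D3:**
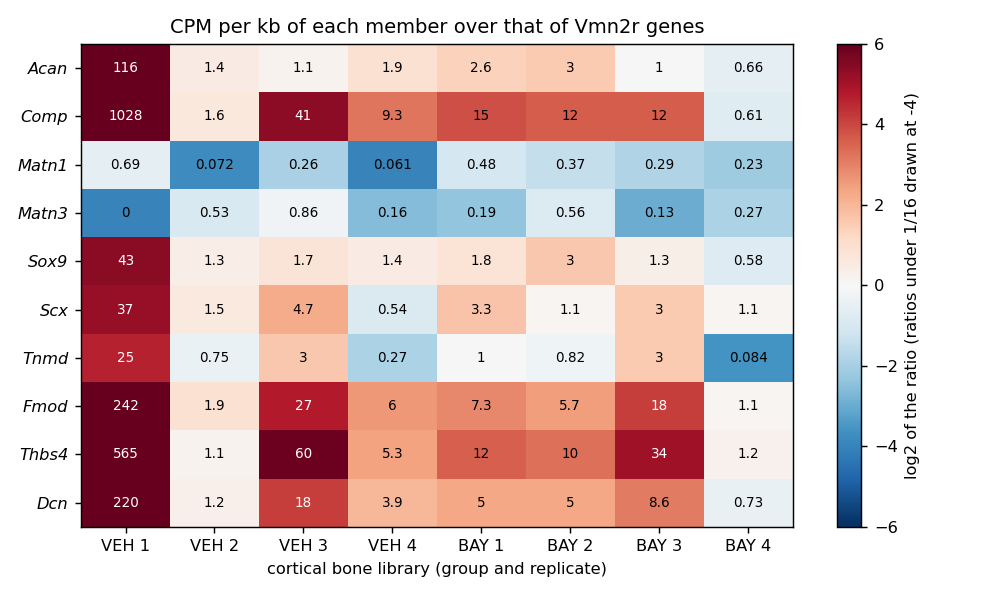
CPM per kb of each member divided by that of the Vmn2r genes in the same bone library, printed in each cell and coloured on a log2 scale (red above, blue below). Matn1 and Matn3 are below 1 in all 8 libraries, and in VEH 2 and BAY 4 no member reaches 3.

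Comp (ENSMUSG00000031849, chromosome 8, 70826208 to 70834716 in mm39) had the lowest unadjusted P value of the members in bone. It was at 257, 23.9, 137 and 133 CPM in VEH-treated and 82.3, 67.4, 79.9 and 14 CPM in BAY-treated bone. Of the VEH-treated mice 3 were above every BAY-treated mouse, and VEH replicate 2 was below 3 of the 4 BAY-treated mice. The means were 138 ± 95.4 and 60.9 ± 32 CPM (SD, n = 4 each), and the log2 fold change was -1.05 (SE 0.80, limma unadjusted P = 0.214). An exact two-sided permutation of the mice gave P = 0.343. Without VEH replicate 2 the log2 fold change of Comp was -1.75 and the gene was called (limma unadjusted P = 0.0284), and without BAY replicate 4 it was -0.43. Without both it was -1.14 (limma unadjusted P = 0.0705). The 2 libraries with the least Comp were thus the 2 with the highest Vmn2r level, 1 in each group.

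**Figure D4:**
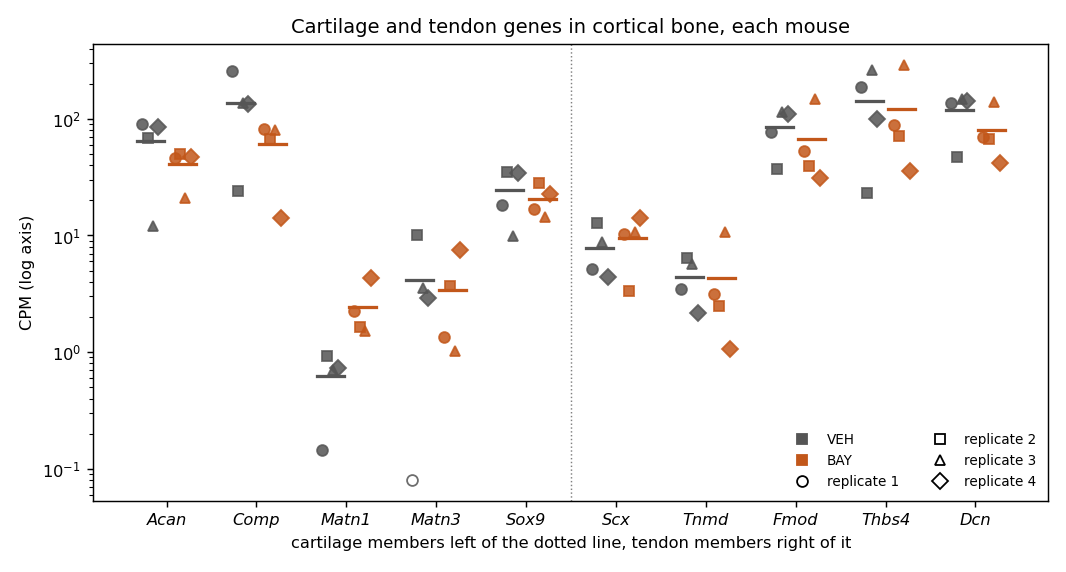
CPM of the 10 members in cortical bone on a log axis, 1 point per mouse, with VEH in grey, BAY in orange, the replicate by the marker's shape and the group mean (n = 4) as a bar; the open circle at the bottom is Matn3 in VEH replicate 1, listed at 0. Groups overlap for every gene but Matn1, whose 8 values lie between 0.144 and 4.3 CPM.

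Acan was at 91.1, 68.1, 12 and 85.2 CPM in VEH-treated and 46.5, 49.6, 20.9 and 47.3 CPM in BAY-treated bone. Replicate 3 was the lowest of each group. Acan had a log2 fold change of -0.37 (SE 0.70), and -1.06 without VEH replicate 3 (limma unadjusted P = 0.122). Sox9, the chondrocyte factor, was at 18.4, 35, 9.92 and 34.2 CPM in VEH-treated and 17, 28.1, 14.3 and 22.6 CPM in BAY-treated bone. Replicate 3 was the lowest of each group here too, and the log2 fold change of Sox9 was -0.13 (SE 0.65). Relative to the Vmn2r level, Acan and Sox9 were 116 and 42.8 times higher in VEH replicate 1 but between 0.577 and 3.05 times in the other 7 libraries. Both genes have an antisense partner on the opposite strand. So has Comp, where Gm51533 shares 128 of the 2967 exon bases. BC006965 shares 542 of the 4135 exon bases of Sox9 and was at 1.29 CPM in VEH replicate 1 and 40.8 CPM in BAY replicate 4. Gm26633 shares 126 exon bases with Acan and was at 0.575 and 48.4 CPM in the same libraries.

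Matn1 was at 0.144, 0.921, 0.709 and 0.728 CPM in VEH-treated and 2.24, 1.65, 1.53 and 4.3 CPM in BAY-treated bone. Every BAY-treated mouse was above every VEH-treated mouse, which held for 1 of 10 members and for 0.403% of all bone genes in either direction. The reads were 1, 1, 2 and 1 in VEH-treated and 5, 4, 3 and 4 in BAY-treated bone, so all the VEH values were under the floor of 3 reads. Matn1 had a log2 fold change of 2.12 (SE 2.10, limma unadjusted P = 0.331), and the exact two-sided permutation gave P = 0.0286, the lowest value possible. It was 1.04 with log2(CPM + 1), and it was called with eBayes without a trend (limma unadjusted P = 0.0367). Per kilobase Matn1 was below the Vmn2r level of its own library in all 8 mice, at 0.0614 to 0.695 times that level. Matn3 was at 0, 10.1, 3.54 and 2.91 CPM in VEH-treated and 1.34, 3.72, 1.02 and 7.52 CPM in BAY-treated bone, also below the Vmn2r level throughout. For Matn3 the log2 fold change, 2.96 (SE 3.48), turned on the single value listed at 0 and was -0.01 with log2(CPM + 1). Expression of the matrilins was thus not detectable above that level.

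The tendon factor genes in bone were low as well. Scx was at 5.18, 12.9, 8.86 and 4.37 CPM in VEH-treated and 10.3, 3.31, 10.7 and 14 CPM in BAY-treated bone, on 6 to 36 reads per library. The log2 fold change of Scx was 0.24 (SE 0.88, limma unadjusted P = 0.785), with the groups interleaved, and it was -0.61 after median centring. The estimate of 0.63 in muscle lies within the bone interval of -1.65 to 2.14, and the difference between the tissues was not tested, since their tables were scaled separately. Tnmd was at 3.45, 6.44, 5.67 and 2.18 CPM in VEH-treated and 3.13, 2.48, 10.7 and 1.07 CPM in BAY-treated bone. Per kilobase Tnmd was at or under the Vmn2r level in 5 of 8 libraries and Scx in 1 of 8. For Tnmd the log2 fold change was -0.41 (SE 1.26).

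The tendon matrix genes were the most abundant members of bone together with Comp. Fmod (chromosome 1, 133964992 to 133976015) was at 77.8, 36.8, 115 and 111 CPM in VEH-treated and 52.7, 39.3, 148 and 31.2 CPM in BAY-treated bone. Thbs4 (chromosome 13, 92888098 to 92931326) was at 186, 23, 263 and 99.7 CPM in VEH-treated and 88.1, 70.7, 291 and 35.5 CPM in BAY-treated bone. Dcn was at 138, 47, 148 and 142 CPM in VEH-treated and 69.7, 67.8, 139 and 41.9 CPM in BAY-treated bone. The 3 genes shared an order of libraries at the ends, with VEH replicate 3 and BAY replicate 3 at the top of their groups and VEH replicate 2 and BAY replicate 4 at the bottom. The log2 fold changes of Fmod, Thbs4 and Dcn were -0.48, -0.20 and -0.58, with standard errors of 0.63, 0.82 and 0.59. With each mouse left out they ranged from -0.95 to -0.20, from -0.92 to 0.25 and from -0.98 to -0.31. None differed between the groups beyond the spread between mice.

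In bone the order per kilobase ran from Thbs4 at 41.3 ± 32 and Comp at 40.9 ± 32 CPM per kb (SD, n = 8 each) through Fmod at 24.5, Dcn at 16.3, Acan at 6.9, Scx at 6.37, Sox9 at 5.37, Tnmd at 3.22 and Matn3 at 1.25 to Matn1 at 0.76 CPM per kb. Thbs4 was above Comp in 3 of 8 mice, Comp above Fmod in 5 of 8, Acan above Scx in 3 of 8, Scx above Sox9 in 5 of 8 and Matn3 above Matn1 in 5 of 8, so these neighbours did not keep their order. The Vmn2r level averaged 3.78 CPM per kb over the same libraries, above the means of Tnmd, Matn3 and Matn1 and near those of Acan, Scx and Sox9, so the order below Dcn is one of values near or under that level. Fmod was above Dcn in 8 of 8 mice, Dcn above Acan and Tnmd above Matn3 in 7 of 8, and Sox9 above Tnmd in 6 of 8. Among the cartilage genes Comp had the highest mean per kilobase. It was above Sox9, Matn1 and Matn3 in 8 of 8 mice and above Acan in 7 of 8, the exception being BAY replicate 4, with Comp at 5.75 and Acan at 6.21 CPM per kb. Thbs4, Fmod and Dcn had the highest means of the tendon genes in each tissue, whose tables were scaled separately, and all 3 were above both Scx and Tnmd in 6 of 8 mice in bone and 6 of 8 in muscle. The exceptions in bone were VEH replicate 2 and BAY replicate 4, where no member was above 3 times the Vmn2r level.

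Across the bone libraries Acan and Sox9 had a different order from the abundant tendon members, and Comp was at its lowest where those were. The summed CPM of Acan and Sox9 was lowest in VEH replicate 3, at 22 CPM, and BAY replicate 3, at 35.1 CPM, and lay between 63.5 and 119 CPM in the other 6. The summed CPM of Fmod, Thbs4 and Dcn was highest in the same 2 libraries, at 525 and 577 CPM, and lay between 107 and 402 CPM in the other 6. It was lowest in VEH replicate 2, at 107 CPM, and BAY replicate 4, at 109 CPM, where Comp was also lowest, at 23.9 and 14 CPM. Outside VEH replicate 1, Acan and Sox9 lay at 0.577 to 3.05 times the Vmn2r level, so their order among those libraries is that of values near that level. Osteoblast and osteocyte markers were highest in VEH replicate 3 and BAY replicate 3, at 21809.5 and 15567 CPM, followed by VEH replicate 4 at 15021 CPM. Muscle fibre markers were high in other libraries, at 31711 and 34733 CPM in BAY replicates 1 and 2 and at 8419 CPM in VEH replicate 1. The part of the tissue mix in these levels was not tested. Without those 3 libraries, a choice made after seeing the data, 0 members were called, where 0.606% of all bone genes were.

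**Figure D5:**
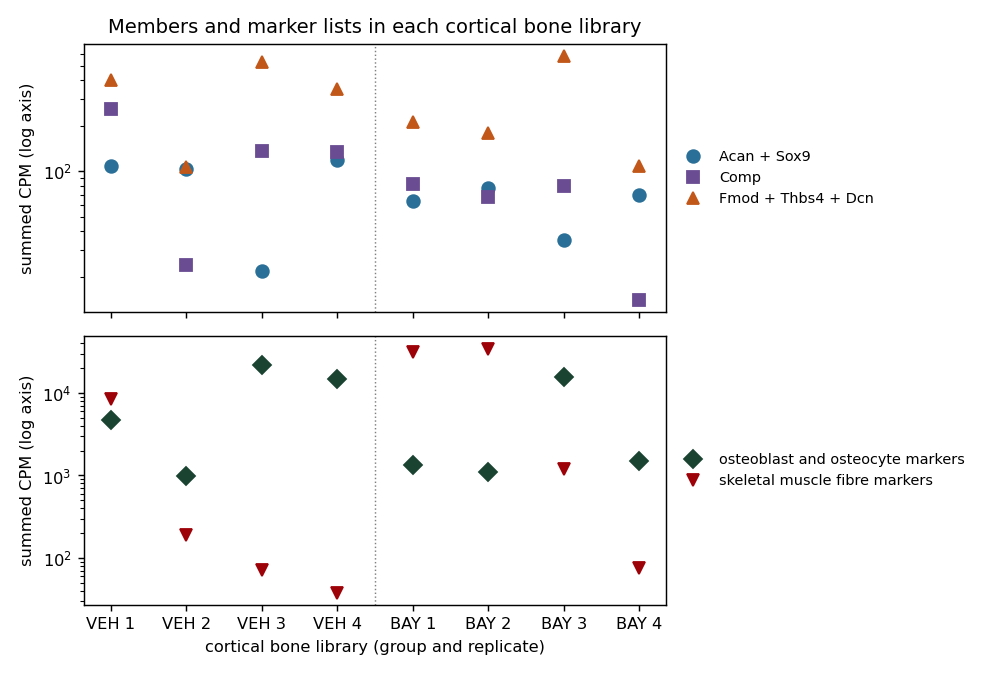
Summed CPM in each of the 8 cortical bone libraries on log axes, with members above (Acan and Sox9 as circles, Comp as squares, Fmod, Thbs4 and Dcn as triangles) and the summed markers of osteoblasts and osteocytes and of muscle fibres below. In VEH 3 and BAY 3 the circles are at their lowest, at 22 and 35.1 CPM, and the triangles at their highest, at 525 and 577 CPM.

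The mean log2 value of the cartilage members minus that of the tendon members was taken in each mouse as a description, with no test. In bone it was -4.49, -0.53, -2.48 and -0.84 in VEH-treated and -1.15, -0.28, -2.83 and -0.11 in BAY-treated mice. The tendon members were the higher in all 8. The cartilage mean includes Matn1 and Matn3, which were below the Vmn2r level in all 8 libraries, and the values are not scaled by transcript length. In VEH replicate 2 and BAY replicate 4 no member was above 3 times that level. The group means were -2.08 ± 1.82 and -1.09 ± 1.25 (SD, n = 4 each), a difference of 0.99 that was less than the spread between mice and was 0.15 with log2(CPM + 1). The lowest value, in VEH replicate 1, came with Matn3 listed at 0, and without that mouse the difference was 0.19. It was larger without VEH replicate 2, at 1.51, without BAY replicate 3, at 1.57, and with Comp counted among the tendon members, at 1.56. In muscle, with Comp and Sox9 as the cartilage members, it was -1.57 ± 1.01 in VEH-treated and -1.51 ± 1.19 in BAY-treated mice (SD, n = 4 each), a difference of 0.06. Tnmd was listed at 0 in the 2 mice farthest from the rest, and with log2(CPM + 1) the SDs were 0.27 and 0.29 and the difference 0.09. Leaving out 1 mouse at a time moved the muscle difference between -0.52 and 0.55, and with Comp among the tendon members it was 0.51. Neither tissue showed a shift between cartilage and tendon genes beyond the spread between mice.

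Of the related genes in bone, 19 of the 20 cartilage genes were in the table, 7 higher and 12 lower (median log2 fold change -0.24), and all 20 tendon genes, 7 higher and 13 lower (median -0.17). Of either list 0 were called, and no gene of either reached an unadjusted limma P below 0.05. The cartilage genes with the largest estimates, Epyc, Ucma and Cnmd, had at most 15 reads in any library and a standard error of at least 3.78. Among the tendon genes Tnc, which encodes tenascin-C, was at 995 ± 854 CPM in VEH-treated and 593 ± 903 CPM in BAY-treated bone (SD, n = 4 each), with a log2 fold change of -1.24 (SE 1.07). Bgn, which encodes biglycan, a close relative of decorin, was at 319 ± 236 and 180.2 ± 191 CPM, with a log2 fold change of -0.94 (SE 0.76). Without VEH replicate 3 the log2 fold changes of Tnc and Bgn were -0.70 and -0.54, and without VEH replicate 1 they were -1.40 and -1.25. The log2 fold change of Kera, a keratocan gene of the same family, was 1.49 (SE 1.49), and -0.08 without VEH replicate 1. The SD of Tnc and Bgn over the BAY-treated mice exceeded their BAY means.

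The 5 protein-coding genes most like the tendon members across the 8 muscle libraries were Gm14326, Zfp280b, Exoc6, Cd248 and Col12a1, with Pearson r on log2(CPM + 1) of 0.96 to 0.98 among 11210 genes compared. Col12a1, a collagen of tendon and muscle connective tissue, and Cd248, a stromal cell marker, had r of 0.96 each. Without VEH replicate 3 and BAY replicate 2, the libraries farthest from the median, r was 0.88 for Col12a1 and 0.78 for Cd248. For the cartilage members of muscle they were Ssc5d, Tgfbr2, Myh2, Acaca and Fstl1, with r of 0.98 to 0.99, and of 0.81 to 0.94 without VEH replicates 3 and 1. In bone the genes most like the tendon members were Dus3l, Rpl34, Gm49909, Gipc1 and Ccn2, with r of 0.93 to 0.98 among 19836 genes, and those most like the cartilage members were Alkal2, Col10a1, Ccdc106, Emc6 and Lrrc52, with r of 0.86 to 0.93. Col10a1, the collagen of hypertrophic cartilage, had r of 0.92 with the cartilage members of bone, and Ccn2, a matricellular growth factor, 0.93 with the tendon members. All these points share a library and its depth with the members, and with so many genes compared over 8 libraries the values are descriptions only.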

How the data were processed

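Per the labels and the study's methods, the authors made stranded poly(A) libraries, mapped trimmed reads to mm39 with STAR (version 2.7.8a), counted genes by the E/M algorithm of Partek Flow and deposited log2 of CPM plus an offset. From the lowest values this offset was 0.0001 in bone and 0.0004 in muscle. Each tissue was scaled in its own table, so tests were run within a tissue. The value of 1 read was recovered from the steps between low values, and 81.2% to 88.5% of values up to 50 reads were whole to within 0.02. Floors cover counting error only.

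The groups were compared in limma (version 3.58.1, R version 4.3.3) with eBayes following the mean-variance trend, without filter or covariate, two-sided, and with Benjamini-Hochberg adjustment over all genes of the table. Calls needed an unadjusted P below 0.05 and at least a 2-fold change, and fold changes refer to log2(CPM + offset). Single members were also compared by an exact permutation test. Fits were tested on simulated data. Alternatives were log2(CPM + 1), log2(CPM + 0.1), median centring, a minimum mean of 1 CPM, quantile normalization, voom weights, eBayes without a trend, array weights, voom on recovered reads, a replicate block, each mouse left out and, added after seeing the data, 2 sets of bone libraries left out. In the voom fit on recovered reads, non-whole reads were kept. The study's methods name limma with voom for the differential test.

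Not every pair of same-numbered mice deviated together (r of 0.07, -0.08, 0.49 and 0.19 in bone and -0.08, -0.10, 0.04 and -0.08 in muscle), so the numbers were not taken as pairs. No 2 libraries of the same group and tissue agreed within sampling noise. Lengths are of the canonical transcript in GENCODE M39. Gene positions are the table's, with the end written as the last base. Members and related gene lists were chosen with earlier results of these data known. Named genes are the members, the called related genes, the 3 related genes per list and tissue with the largest change at a mean of at least 1 CPM, and the 5 genes most like the members of each kind. The remaining steps used Python 3.11.15, scipy 1.17.1, pandas 2.3.3, numpy 2.4.6 and matplotlib 3.10.9.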

Additional observations from a re-analysis of the deposited data

Results flagged for a closer look

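In 4 of 34 groups tested, 11.8%, a mouse stood far from the other 3 by Dixon's test, which flags about 1 in 20 groups by chance; the groups share libraries and are not independent. In cortical bone Acan was at 20.9 CPM in BAY replicate 3, against 46.5 to 49.6 CPM in the other 3, and Dcn was at 47 CPM in VEH replicate 2, against 138 to 148 CPM. In skeletal muscle Fmod was at 57.8 CPM in VEH replicate 3, against 9.66 to 12.5 CPM, and Thbs4 at 62.9 CPM in the same mouse, against 16.2 to 22 CPM. The summed adipocyte and fibroblast markers were highest in that muscle library too, at 199 and 206 CPM, and their part in the Fmod and Thbs4 values was not tested.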

How the results depend on the processing

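Scx in muscle kept its direction and an unadjusted limma P value under 0.05 in all 18 alternatives, at 0.51 to 0.72, and Matn1 in bone kept its direction in all 20, at 1.04 to 2.40. No member was called in muscle in any alternative. In bone 1 member was called with eBayes without a trend, Matn1, and 1 without VEH replicate 2, Comp, so the count ranged from 0 to 1 with each mouse left out. Over all members and alternatives, 22 of 200 fold changes in bone and 10 of 125 in muscle turned in direction.

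Of all bone genes 249 were called, and 443 after median centring, 705 with quantile normalization, 540 with voom weights, 408 with eBayes without a trend, 901 with array weights (whose fit stopped before it converged), 1433 with voom on recovered reads, 82 with the filter at a mean of 1 CPM and 115 to 1116 with each mouse left out. The lowest count was without VEH replicate 3 and the highest without VEH replicate 2. Of all muscle genes 510 were called, and 52 with log2(CPM + 1) and 193 with the filter. The cause was not tested. With the replicate block, 305 genes were called in bone and 489 in muscle, the log2 fold changes were the same and 0 members were called. In bone, replicates 3 and 4 correlated above 0.1 with their own number, replicates 1 and 2 did not, and not every mouse correlated best with its own number in either tissue.

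In bone the log2 fold change turned to -0.01 for Matn3 with log2(CPM + 1), to -0.61 for Scx after median centring, to -0.76 for Matn3 with quantile normalization, and to 0.05 for Sox9 with voom on recovered reads. With array weights it turned to 0.08 for Acan, 0.59 for Comp, -1.41 for Matn3, -0.55 for Scx, 0.79 for Thbs4 and 0.07 for Dcn. Without VEH replicate 2 and BAY replicate 4 it was 0.04 for Sox9 and 0.32 for Tnmd, and without VEH replicate 1 and BAY replicates 1 and 2 it was -0.77 for Matn3 and 0.27 for Thbs4. With each mouse left out it ranged from -0.92 to 4.62 for Matn3, from -0.50 to 0.10 for Sox9, from -1.01 to 0.10 for Tnmd, from -0.92 to 0.25 for Thbs4 and, with called Comp at its lowest, from -1.75 to -0.43 for Comp. In muscle array weights gave 0.33 for Tnmd and 0.10 for Thbs4, and with each mouse left out the range was -3.05 to 2.21 for Tnmd, -0.76 to 0.10 for Fmod and -0.29 to 0.41 for Thbs4. Read counts were low for Tnmd in muscle and Matn1 and Matn3 in bone, at most 18, 5 and 11 in any library. The deepest bone library, VEH replicate 1, held 1 and 0 reads of Matn1 and Matn3, and the shallowest, BAY replicate 4, held 4 and 7.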
